A study of Mus musculus with 12 samples.

Results

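Transcripts of 42 genes for the proteasome and the factors that help to assemble it were followed in mouse embryonic stem cells given the proteasome inhibitor MG132, 4OHT or both. The genes were taken from a fixed list of names and found on the arrays by probe accession: 68 probes reported them, out of 56605 probes for 45616 genes or unnamed accessions in all. The 42 genes were 7 alpha and 7 beta subunits of the core particle, 6 ATPases and 4 other subunits of the base, 8 lid subunits, 3 chaperones of base assembly, 5 factors of core assembly, and the activator Psme4 with the deubiquitinase Usp14.

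RNA came from 4 groups of 3 cultures, described by the submitters as biological replicates, each hybridised to a one-colour Agilent array. The first group received 1 µM MG132 for 30 min and then MG132 with 250 nM 4OHT for 6 h, the second MG132 alone on the same schedule, and the third 250 nM 4OHT alone for 6 h. The fourth was untreated and titled as 0 h. All groups grew in stem cell medium with leukaemia inhibitory factor (LIF) and the FGF receptor inhibitor PD173074 at 250 nM. 4OHT is a tamoxifen metabolite, widely used as a switch for engineered proteins that carry an oestrogen receptor domain. The labels name neither such a protein in these cells nor a vehicle, and no group was titled as untreated at 6 h, so duration and compound cannot be told apart in any comparison with untreated cells.

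The proteasome degrades proteins tagged with ubiquitin. Its core particle is a barrel in which rings of alpha subunits form the gates and rings of beta subunits hold the catalytic sites. The regulatory particle caps the barrel: its base recognises ubiquitin and unfolds the substrate with a ring of ATPases, and its lid removes the ubiquitin chain. Chaperones outside the finished particle order the assembly of the alpha ring, the beta ring and the base. In many mammalian cells a block of the proteasome stabilises the transcription factor encoded by Nfe2l1, which binds antioxidant response elements together with small Maf proteins and activates proteasome genes. MG132 is a peptide aldehyde that acts chiefly on the chymotrypsin-like site formed by Psmb5. Human embryonic stem cells are known for high proteasome activity.

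Promoters of 34 of the 42 genes matched RefSeq sequences of the GRCm38.p6 assembly, each running from 250 bases before to 50 bases after a transcription start. Sequences of 4 are printed here because these genes anchor the MG132 results below: Psmd14 had the largest rise with MG132, Psmg1 the largest fall among the genes with a matched promoter, and Adrm1 and Psmb5 carry the antioxidant element but moved in opposite directions. Adrm1 and Psmb5 were picked after their values were seen. The windows are chr2:61711444-61711743 on the plus strand for Psmd14, chr2:180171338-180171637 on the plus strand for Adrm1, chr16:95990911-95991210 on the minus strand for Psmg1 and chr14:54617946-54618245 on the minus strand for Psmb5. Capitals mark every match on either strand to the antioxidant element TGACNNNGC or to the CCAAT box. In the Psmd14 window, a forward and a reverse CCAAT overlap just after the start.
Psmd14: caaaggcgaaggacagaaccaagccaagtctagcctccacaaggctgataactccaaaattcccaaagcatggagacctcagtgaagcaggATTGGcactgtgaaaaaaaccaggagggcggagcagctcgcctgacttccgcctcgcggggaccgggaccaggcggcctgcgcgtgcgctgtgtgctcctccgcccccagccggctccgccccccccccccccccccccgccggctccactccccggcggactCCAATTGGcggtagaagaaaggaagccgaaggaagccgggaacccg
Adrm1: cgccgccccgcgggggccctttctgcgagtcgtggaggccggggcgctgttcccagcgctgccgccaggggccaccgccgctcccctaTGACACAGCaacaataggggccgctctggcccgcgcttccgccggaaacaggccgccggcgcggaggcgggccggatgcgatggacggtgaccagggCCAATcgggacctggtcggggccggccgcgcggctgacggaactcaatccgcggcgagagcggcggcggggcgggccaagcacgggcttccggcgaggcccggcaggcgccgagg
Psmg1: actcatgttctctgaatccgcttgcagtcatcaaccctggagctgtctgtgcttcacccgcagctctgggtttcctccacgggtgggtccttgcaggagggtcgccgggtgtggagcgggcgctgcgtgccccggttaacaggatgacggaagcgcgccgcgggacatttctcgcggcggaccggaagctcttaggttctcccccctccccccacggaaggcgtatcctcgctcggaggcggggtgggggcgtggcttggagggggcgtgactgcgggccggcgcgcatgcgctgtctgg
Psmb5: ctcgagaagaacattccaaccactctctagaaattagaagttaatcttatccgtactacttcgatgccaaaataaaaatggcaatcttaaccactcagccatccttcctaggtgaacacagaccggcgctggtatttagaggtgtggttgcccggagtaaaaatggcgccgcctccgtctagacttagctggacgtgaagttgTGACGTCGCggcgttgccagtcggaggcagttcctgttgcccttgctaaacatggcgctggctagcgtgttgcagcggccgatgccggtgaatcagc
The antioxidant element was found in 7 of the 34 genes (20.6%) and in 14% of all 27025 genes with a promoter. These 7 were Psmb5, Psmb6, Psmc6, Psmd9, Psmd12, Adrm1 and Psme4. The CCAAT box was found in 12 of the 34 (35.3%), against 41.1% of all genes. Among genes with a promoter, the antioxidant element lay in 1 of 5 that rose with MG132, in 1 of 6 that fell and in 5 of 23 that did not pass the test. The CCAAT box lay in 4 of the 5, 2 of the 6 and 6 of the 23. A match is a string of letters in a window, not an occupied site.

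All 42 genes, and all 68 of their probes, were well above background on all 12 arrays. Signals are processed intensities on a log2 scale on which 0 marks each array's 75th percentile. Members spanned 0.97 to 7.26 on this scale. Their median SD within a group was 0.05 with both compounds, 0.09 with MG132, 0.11 with 4OHT and 0.10 in untreated cells, below the 0.13, 0.16, 0.25 and 0.14 of all genes. Where several probes reported a gene, the one with the highest mean was used, and in none of the 20 genes with several probes were 2 probes called in opposite directions.

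The cells carried the stem cell identity named in the labels: all 8 markers listed for it were above background on every array. Their summed level, in multiples of the 75th percentile, was 483.1 to 562 with both compounds, 506.3 to 519.1 with MG132, 840.9 to 859.7 with 4OHT and 839.2 to 891.1 in untreated cells. Fibroblast markers (5 of 7 measured) summed to 4.57 to 5.71, 3.68 to 3.88, 17.5 to 27.9 and 1.66 to 2.2 in the same order, and trophoblast markers (5 of 6) to 21.9 to 40.2, 11 to 15.7, 16.2 to 42.7 and 6.22 to 7.72. Primitive endoderm markers (6 of 6) summed to 0.863 to 1.55, 0.954 to 1.25, 0.642 to 1.71 and 0.689 to 1.79. Col3a1, Postn and Elf5 were not well above background on all arrays of any group. The stem cell sum was lower in both MG132 groups than in the groups without MG132, and the fibroblast and trophoblast sums were higher in each treated group than in untreated cells, without overlap. A sum follows its brightest markers: the fibroblast sum followed Thy1, with mean log2 signals of 2.11, 1.76, 4.34 and 0.63 in the order above. The stem cell sum followed Dppa5a (8.47, 8.25, 9.05 and 9.03) and hid changes of dimmer markers. With 4OHT alone, Nanog (1.54 against 3.96 in untreated cells), Esrrb (5.52 against 6.53) and Tdgf1 (3.72 against 3.89) were lower. Utf1 (5.94 against 5.08) and Sox2 (5.01 against 4.74) were higher, and Pou5f1, Zfp42 and Dppa5a nearly equal. The part of the markers in the results was not tested, and in bulk RNA fewer cells of a type and less RNA per cell cannot be told apart.

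Alpha subunits of the core particle showed no common pattern. Psma5, an alpha ring subunit, read 6.21, 6.16 and 6.10 with both compounds, 5.75, 5.61 and 5.74 with MG132, 6.03, 6.20 and 6.21 with 4OHT and 5.71, 5.75 and 6.02 in untreated cells. Its groups given 4OHT lay above those without it, though barely (6.03 with 4OHT against 6.02 in untreated cells), and MG132 alone overlapped untreated cells. Psma7, another alpha ring subunit, read 5.16, 5.09 and 5.19 with both compounds, 5.80, 5.70 and 5.90 with MG132, 5.43, 5.62 and 5.89 with 4OHT and 5.68, 5.79 and 6.04 in untreated cells. Only the arrays with both compounds stood apart for Psma7, below the 9 others, which overlapped between groups.

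Of the catalytic beta subunits, Psmb5 was low in both MG132 groups. Psmb5, which carries the chymotrypsin-like activity, read 4.80, 4.74 and 4.89 with both compounds, 4.91, 4.99 and 5.02 with MG132, 5.11, 5.37 and 5.37 with 4OHT and 5.32, 5.33 and 5.43 in untreated cells. Both MG132 groups lay below both groups without it. Psmb6, with caspase-like activity, read 7.12, 7.12 and 7.16 with both compounds, 6.96, 6.95 and 7.12 with MG132, 6.84, 6.89 and 7.07 with 4OHT and 6.74, 6.73 and 6.98 in untreated cells. Psmb7, with trypsin-like activity, read 4.55, 4.52 and 4.61 with both compounds, 4.29, 4.33 and 4.41 with MG132, 4.46, 4.47 and 4.56 with 4OHT and 4.35, 4.37 and 4.53 in untreated cells. For Psmb6 and Psmb7, single compounds overlapped untreated cells, and for Psmb6 the arrays with both compounds lay above untreated cells.

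In the regulatory particle, Psmc3, Adrm1 and Psmd14 were high wherever MG132 was given. Psmc3, an ATPase of the base, read 7.18, 7.20 and 7.26 with both compounds, 7.12, 7.10 and 7.12 with MG132, 6.70, 6.77 and 6.91 with 4OHT and 6.59, 6.64 and 6.77 in untreated cells. Adrm1, a ubiquitin receptor of the base that also docks the deubiquitinase Uchl5, read 5.06, 5.23 and 5.29 with both compounds, 4.82, 4.97 and 4.97 with MG132, 4.70, 4.55 and 4.51 with 4OHT and 4.27, 4.32 and 4.35 in untreated cells. Psmd14, the lid metalloprotease that cuts ubiquitin chains off substrates, read 5.49, 5.59 and 5.63 with both compounds, 5.43, 5.37 and 5.42 with MG132, 5.24, 5.14 and 5.12 with 4OHT and 4.55, 4.58 and 4.85 in untreated cells. For Adrm1 and Psmd14 the 4 groups did not overlap at all and stood in the same order, with untreated cells lowest. Psmc6, another ATPase of the base, instead followed 4OHT, at 6.23, 6.22 and 6.10 with both compounds, 5.89, 5.73 and 5.78 with MG132, 6.21, 6.17 and 6.14 with 4OHT and 5.80, 5.82 and 5.95 in untreated cells.

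Of the assembly factors, Psmg1, Psmg2 and Psmd10 were below both groups without MG132 whenever MG132 was given. Psmg1, which pairs with Psmg2 to build the alpha ring, read 4.44, 4.28 and 4.44 with both compounds, 4.75, 4.35 and 4.78 with MG132, 4.99, 4.99 and 5.08 with 4OHT and 5.13, 5.21 and 5.33 in untreated cells. Psmg2 read 1.55, 1.5 and 1.43 with both compounds, 2.21, 2.17 and 2.19 with MG132, 2.59, 2.68 and 2.93 with 4OHT and 2.69, 2.80 and 2.90 in untreated cells. For Psmg2 the groups separated into 3 levels, with both compounds lowest, MG132 between, and 4OHT overlapping untreated cells. Psmg3, which pairs with Psmg4 on the alpha ring, read 1.03, 0.99 and 0.99 with both compounds, 1.35, 1.46 and 1.57 with MG132, 1.54, 1.56 and 1.85 with 4OHT and 1.65, 1.66 and 1.79 in untreated cells. With MG132 alone it overlapped 4OHT, and with both compounds it lay below every other array. Pomp, the maturation factor that guides beta subunits onto the alpha ring, read 6.62, 6.57 and 6.61 with both compounds, 5.85, 5.53 and 5.89 with MG132, 6.55, 6.71 and 6.84 with 4OHT and 6.20, 6.17 and 6.36 in untreated cells. Pomp was thus low with MG132 alone and high in both 4OHT groups. Psmd10, the base chaperone also known as gankyrin, read 1.41, 1.48 and 1.37 with both compounds, 1.42, 1.25 and 1.39 with MG132, 1.59, 1.84 and 1.83 with 4OHT and 1.80, 1.80 and 2.03 in untreated cells. Its MG132 groups overlapped each other and lay below the others.

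Usp14, a deubiquitinase that docks on the base, read 4.19, 4.10 and 4.19 with both compounds, 4.18, 4.01 and 4.23 with MG132, 4.72, 4.62 and 4.55 with 4OHT and 4.16, 4.18 and 4.23 in untreated cells. It was high with 4OHT alone, and the other groups overlapped. Psme4, an activator that caps the core particle in place of the regulatory particle, read 4.97, 4.85 and 4.34 with both compounds, 4.69, 4.44 and 4.12 with MG132, 5.44, 5.33 and 4.13 with 4OHT and 4.90, 4.83 and 4.74 in untreated cells. Replicate 3 was the lowest array of every group for Psme4, with the widest spread in the 4OHT group (SD 0.73), and its groups overlapped. Over all groups, replicate 3 differed from replicates 1 and 2 in 4 members: Psmd9 and Psmg4 were higher, by 0.23 and 0.61, and Psmb2 and Psme4 lower (-0.44 and -0.60). That is 9.52% of members, against 10.1% of all genes.

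**Figure D1:**
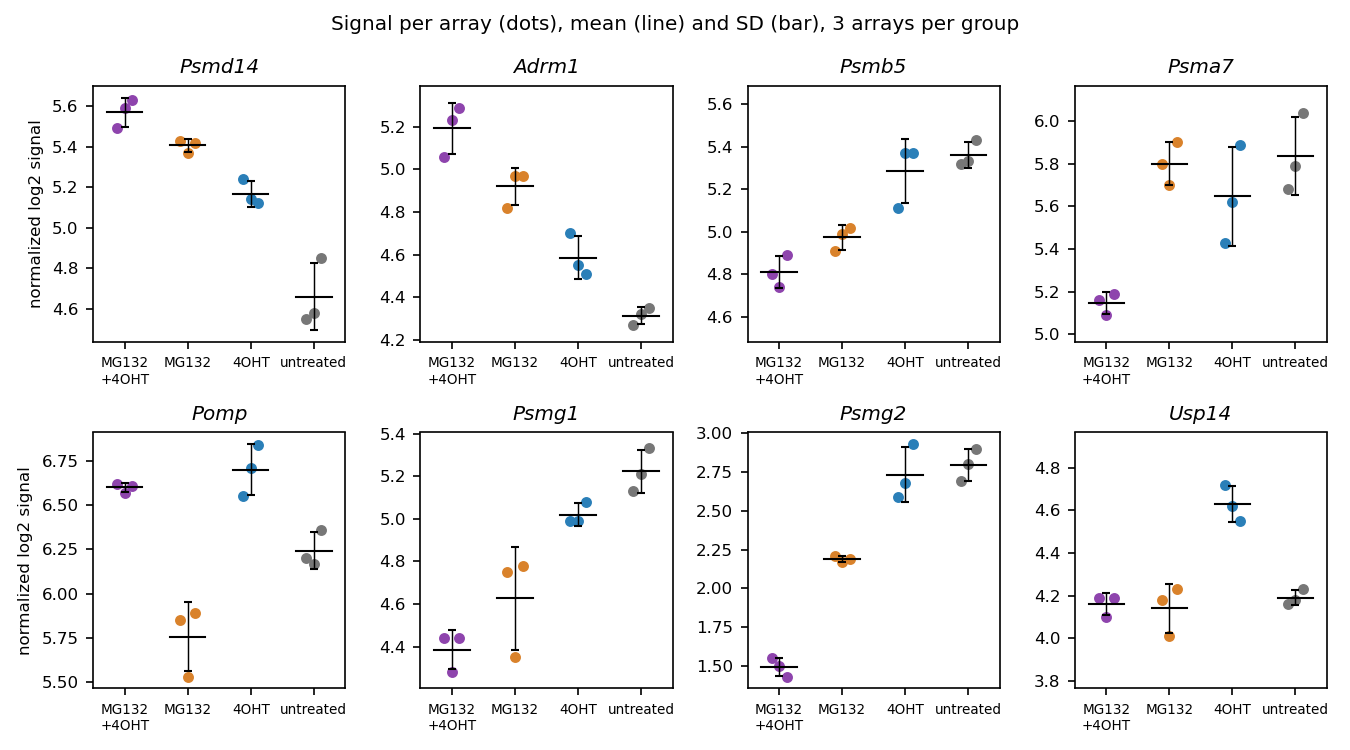
Normalized log2 signal (vertical axes, differing between panels) of 8 proteasome genes on each of 3 arrays per group, from MG132 with 4OHT at the left to untreated at the right; dots are arrays, lines means and bars SD. Psmd14 and Adrm1 step down from left to right without overlap. The means of Psmg1 and Psmg2 step up, with some neighbouring groups overlapping. Usp14 is high with 4OHT alone and Pomp low with MG132 alone.

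MG132 alone against untreated cells asks what inhibition of the proteasome changed. The genes that rose were 5 of the base and Psmd14 of the lid, and the 4 largest falls were in assembly factors. Psmd14 rose by 0.75 ± 0.10 (log2, SE; 1.68-fold, adjusted p = 0.00019), Adrm1 by 0.61 ± 0.10 (1.52-fold, adjusted p = 0.00058), Psmc3 by 0.45 ± 0.09 (adjusted p = 0.002) and the base scaffold Psmd1 by 0.44 ± 0.09 (adjusted p = 0.0025). These and all later adjusted p-values come from limma with Benjamini-Hochberg adjustment over 26837 genes, 3 arrays per group, with a threshold of 0.05. On the other side, Psmg2 fell by 0.61 ± 0.10 (1.53-fold, adjusted p = 0.00096), Psmg1 by 0.60 ± 0.12 (1.51-fold, adjusted p = 0.003), Psmd10 by 0.52 ± 0.11 (adjusted p = 0.0028) and Pomp by 0.48 ± 0.12 (adjusted p = 0.0076). In the core particle the largest called change was the fall of Psmb5, by 0.39 ± 0.10 (1.31-fold, adjusted p = 0.008), and Psma2 fell by 0.28 ± 0.10 (adjusted p = 0.042). The Psmb5 call was lost with quantile normalization (-0.15, adjusted p = 0.19), normexp (-0.20, adjusted p = 0.059) and arrays centred on the members (-0.28, adjusted p = 0.052), and the Psma2 call with quantile normalization (-0.19, adjusted p = 0.21) and without any one array of the untreated cells or of both compounds, or MG132 replicate 2 or 3 (adjusted p from 0.053 to 0.13).

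In all, 6 members rose and 7 fell with MG132, or 14.3% and 16.7%, against 24.1% and 19% of all genes tested (43.1% in either direction). In the main scaling the members' shares were below both backgrounds. The median change of the members was -0.05, against 0.07 over all genes. By role, 5 of 10 base genes rose and 0 fell (median 0.24), with 5 and 1 at an unadjusted p under 0.05 in limma, the only tool run. The called 5 were Adrm1, Psmc3, Psmd1, the ATPase Psmc2 (0.33 ± 0.12, adjusted p = 0.043) and the ubiquitin receptor Psmd4 (0.26 ± 0.09, adjusted p = 0.04). The lid split, with 1 of 8 up (Psmd14) and 1 down (Psmd13, -0.35 ± 0.11, adjusted p = 0.029). The Psmd13 call was lost with normexp (-0.123, adjusted p = 0.31), quantile normalization (-0.115, adjusted p = 0.42) and arrays centred on the members (-0.248, adjusted p = 0.077). With slide as a block the calls of Psmc2 (0.337, adjusted p = 0.081) and Psmd4 (0.207, adjusted p = 0.12) were lost. Single arrays decided 3 of these calls: Psmc2 and Psmd4 lost theirs without untreated replicate 1 or 2, MG132 replicate 1 or 3, or any one array with both compounds (adjusted p from 0.053 to 0.15), Psmc2 also without 4OHT replicate 2 and Psmd4 without untreated replicate 3, and Psmd13 without untreated replicate 2 or 3 or MG132 replicate 1 or 2 (adjusted p from 0.061 to 0.11). Of the 14 core particle genes, 0 rose and 2 fell (median -0.06; 0 and 2 unadjusted), and of the 8 assembly factors, 0 rose and 4 fell (median -0.36; 0 and 5 unadjusted). Only Psmd14, Adrm1, Psmg1 and Psmg2 changed by 1.5-fold or more, that is 4 of 42 against 36.1% of all genes, and no member reached 2-fold, against 17.3%.

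The split of 6 up and 7 down depended on the scaling. It was 14 and 4 members with normexp and quantile normalization, and 12 and 4 with quantile normalization alone. Median centring gave 1 and 22, and arrays centred on the members 9 and 4. Of 26837 genes, 5780 rose and 5423 fell with normexp, and 5565 and 5474 with quantile normalization. Median centring gave 3496 and 9554, and centring on the members 7471 and 3700. A larger share of members than of all genes thus rose with normexp and quantile normalization, and fell with median centring. The median of all genes lay at 0.07 in the main scaling and -0.28 with median centring. The calls for Psmd14, Psmd10, Psmg1, Psmg2 and Pomp were kept under each of the alternatives run, Psmd14 between 0.40 and 0.96 and Psmg2 between -0.96 and -0.47, whereas Psmc2 and Psmd4 turned to -0.02 and -0.09 with median centring. Second probes of Psmd14 (0.56), Adrm1 (0.54), Psmg1 (-0.72) and Pomp (-0.52) gave the same direction. On the slide that held all untreated arrays and MG132 replicates 1 and 2, 4 members rose and 6 fell.

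**Figure D2:**
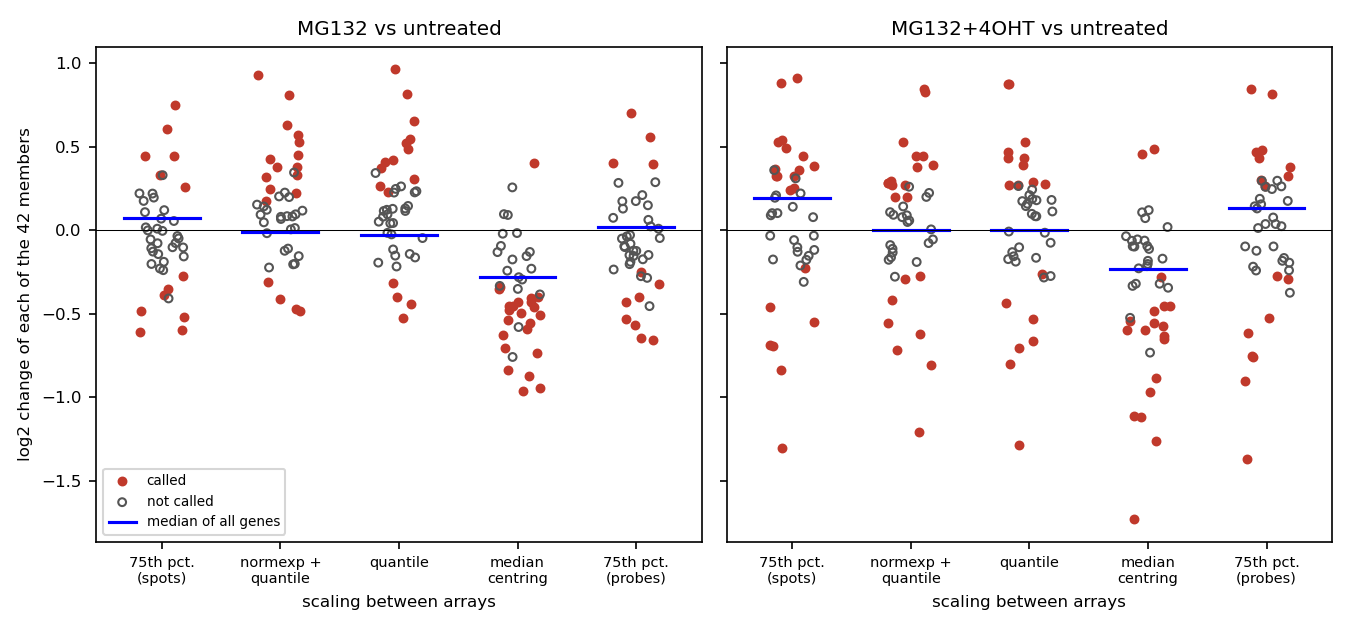
Log2 change (vertical axis) of each of the 42 members for MG132 against untreated (left panel) and MG132 with 4OHT against untreated (right panel) under 5 scalings between arrays (horizontal axis); filled points are called, open points are not, and blue lines are the median of all genes. Under median centring the whole set moves down, from 6 and 7 members called higher and lower to 1 and 22 in the left panel and from 14 and 7 to 2 and 17 in the right panel. Over all 26837 genes the counts move from 6472 and 5092 to 3496 and 9554, and from 8901 and 6032 to 4303 and 10107.

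4OHT alone against untreated cells asks what 6 h of 4OHT changed while the proteasome was not inhibited. Each of the called members rose, and all by less than 1.5-fold. Psmd14 rose by 0.51 ± 0.10 (1.42-fold, adjusted p = 0.0031), Pomp by 0.46 ± 0.12 (adjusted p = 0.015) and Usp14 by 0.44 ± 0.09 (adjusted p = 0.0039). The lid scaffold subunit Psmd12 rose by 0.37 ± 0.10 (adjusted p = 0.015), with 5.89, 5.98 and 5.84 on the 4OHT arrays and 5.43, 5.50 and 5.69 on the untreated ones, which do not overlap. In the alpha ring Psma5 rose by 0.32 ± 0.10 (adjusted p = 0.044) and in the base Psmc6 by 0.32 ± 0.08 (adjusted p = 0.017). The Psma5 call was lost in 19 of 28 alternatives, among them quantile normalization (0.28, adjusted p = 0.056), and the Psmc6 call in 7.

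In this comparison 7 of 42 members rose (16.7%) and 0 fell, with 10 and 0 at an unadjusted p under 0.05 in limma, against 13.9% and 14.7% of all genes (28.6% in either direction). The share that rose was near the background, while no member was among the genes that fell. The members' median change was 0.13 and that of all genes 0.03, with 30 of 42 members above 0. The 7 were spread over the roles: 2 alpha subunits, 1 base ATPase, 2 lid subunits, 1 core assembly factor and Usp14, and 0 of 7 beta subunits (0 unadjusted). The count rests on few arrays: 2 members rose without untreated replicate 1, 2 without untreated replicate 2 and 4 without 4OHT replicate 2, with Psmd14 and Usp14 called each time. On their own slide, which held all arrays of both groups, 4 members rose and 0 fell when the slide was fitted alone. With median centring 0 members were called, and the median of all genes moved to -0.15. In that scaling 2263 of 26837 genes rose and 5419 fell.

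4OHT in the presence of MG132, against MG132 alone, asks what 4OHT changed under inhibition. Pomp rose by 0.84 ± 0.12 (1.80-fold, adjusted p = 0.0008), Psma5 by 0.45 ± 0.10 (adjusted p = 0.01), Psmc6 by 0.38 ± 0.08 (adjusted p = 0.0084) and Psmd12 by 0.32 ± 0.10 (adjusted p = 0.033). Psmg2 fell by 0.70 ± 0.10 (1.62-fold, adjusted p = 0.0011), Psma7 by 0.65 ± 0.13 (1.57-fold, adjusted p = 0.0059) and Psmg3 by 0.46 ± 0.10 (adjusted p = 0.011). Core assembly factors therefore held the largest changes in both directions, with 1 of 5 up and 2 down.

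The 4 rises and 3 falls were 9.52% and 7.14% of members, against 13.9% and 12.6% of all genes (26.5% in either direction), and the median change was 0.11 for members and 0.07 for all genes. Of the 10 base genes 1 rose and 0 fell (2 and 0 unadjusted). All 3 arrays with both compounds and MG132 replicate 3 shared a slide, and the other MG132 arrays lay on another slide: with slide as a block 1 member rose and 3 fell, Pomp keeping its rise (0.71, adjusted p = 0.025) and Psmg2, Psma7 and Psmg3 their falls, but both that fit and the one within the shared slide (Pomp 0.71, adjusted p = 0.043) set the 3 arrays against the single MG132 array there, which is assumed to vary like the others. The direction of the counts also changed with the scaling, to 1 up and 9 down with normexp and 1 up and 7 down with quantile normalization. Of 26837 genes, 3193 rose and 4576 fell with normexp, and 3063 and 4236 with quantile normalization.

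MG132 together with 4OHT, against 4OHT alone, asks what inhibition changed in cells given 4OHT. Adrm1 rose by 0.61 ± 0.10 (adjusted p = 0.00047), Psmc3 by 0.42 ± 0.09 (adjusted p = 0.0025), Psmd14 by 0.40 ± 0.10 (adjusted p = 0.0066) and Psmd1 by 0.28 ± 0.09 (adjusted p = 0.022). Psmg2 fell by 1.24 ± 0.10 (2.37-fold, adjusted p = 8.8e-06), the only change of 2-fold or more, which 21.6% of all genes reached. Psmg3 fell by 0.65 ± 0.10 (adjusted p = 0.0006) and Psmg1 by 0.63 ± 0.12 (adjusted p = 0.0018). In the core particle Psma7 fell by 0.50 ± 0.13 (adjusted p = 0.011) and Psmb5 by 0.47 ± 0.10 (adjusted p = 0.0022), and Usp14 fell by 0.47 ± 0.09 (adjusted p = 0.0014).

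Here 5 members rose and 12 fell (11.9% and 28.6%), against 29.4% and 20.9% of all genes (50.2% in either direction), so rises were fewer and falls more frequent than among all genes, with no test of that difference. Members' median change was -0.03 and that of all genes 0.13. Of the core particle genes 0 of 14 rose and 4 fell (1 and 5 unadjusted), of the base 3 of 10 rose and 0 fell (4 and 0 unadjusted), of the lid 2 of 8 rose and 3 fell, and of the assembly factors 0 of 8 rose and 4 fell (0 and 5 unadjusted). With arrays centred on the members the split turned to 13 up and 6 down, and with median centring to 1 up and 16 down. Of 26837 genes, 9996 rose and 3836 fell in the first of these scalings, and 4994 and 7960 in the other. Single arrays moved the counts: 3 members rose without replicate 1 or replicate 2 of the group with both compounds, and 7 fell without 4OHT replicate 2 or replicate 1 of the group with both compounds. The groups lay on different slides, and with slide as a block the falls of Psmg1, Psmg2, Psmg3 and Usp14 were the calls that remained. That fit takes its slide term from MG132 replicate 3 against MG132 replicates 1 and 2, so it cannot separate the slide from that array. The Psmg1 call was lost with slide and replicate block together (-0.748, adjusted p = 0.051).

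Both compounds against untreated cells gave the most member calls. Psmd14 rose by 0.91 ± 0.10 (1.88-fold, adjusted p = 3.3e-05), Adrm1 by 0.88 ± 0.10 (1.84-fold, adjusted p = 3.4e-05), Psmc3 by 0.54 ± 0.09 (adjusted p = 0.00041) and Psmd1 by 0.53 ± 0.09 (adjusted p = 0.00055). Psmg2 fell by 1.305 ± 0.10 (2.47-fold, adjusted p = 4.8e-06), Psmg1 by 0.84 ± 0.12 (1.79-fold, adjusted p = 0.00025), Psmg3 by 0.69 ± 0.10 (1.62-fold, adjusted p = 0.00032) and Psma7 by 0.69 ± 0.13 (1.61-fold, adjusted p = 0.0015). Of the catalytic beta subunits, Psmb5 fell by 0.55 ± 0.10 (1.46-fold, adjusted p = 0.00074) and Psmb6 rose by 0.32 ± 0.10 (adjusted p = 0.021). The Psmb6 call was lost with quantile normalization (0.18, adjusted p = 0.12), normexp (0.20, adjusted p = 0.069) and slide as a block (0.16, adjusted p = 0.56). With median centring the value for Psmb6 was -0.10. Psmb7 changed by 0.14 ± 0.08 (adjusted p = 0.18).

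Of the 42 members 14 rose and 7 fell (33.3% and 16.7%), against 33.2% and 22.5% of all genes (55.6% in either direction), shares near or below the background. The median was 0.10 for members and 0.19 for all genes. In the base 7 of 10 rose and 0 fell (8 and 0 unadjusted; median 0.38): Adrm1, Psmd1, Psmd4 and 4 of the 6 ATPases. The lid had 3 of 8 up and 0 down (4 and 0 unadjusted), the core particle 3 of 14 up and 3 down, and core assembly 1 of 5 up (Pomp, 0.36 ± 0.12, adjusted p = 0.024, and -0.06 with median centring) and 3 down. The split of 14 up and 7 down became 9 and 8 with the percentile taken over probes and 2 and 17 with median centring. Of 26837 genes, 7969 rose and 6550 fell with the percentile over probes, and 4303 and 10107 with median centring. Without untreated replicate 1 or untreated replicate 2, 9 members rose. The groups lay on different slides, and with slide as a block 3 rises (Psmd14, Adrm1 and Psmc3) and the falls of Psmg1, Psmg2, Psmg3, Psma7 and Psmb5 were called. The slide term in that fit rests on MG132 replicate 3 against MG132 replicates 1 and 2, so it cannot separate the slide from that array. With slide and replicate block together, Psma7 (-0.59, adjusted p = 0.081) and Psmb5 (-0.497, adjusted p = 0.076) were not called.

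**Figure D3:**
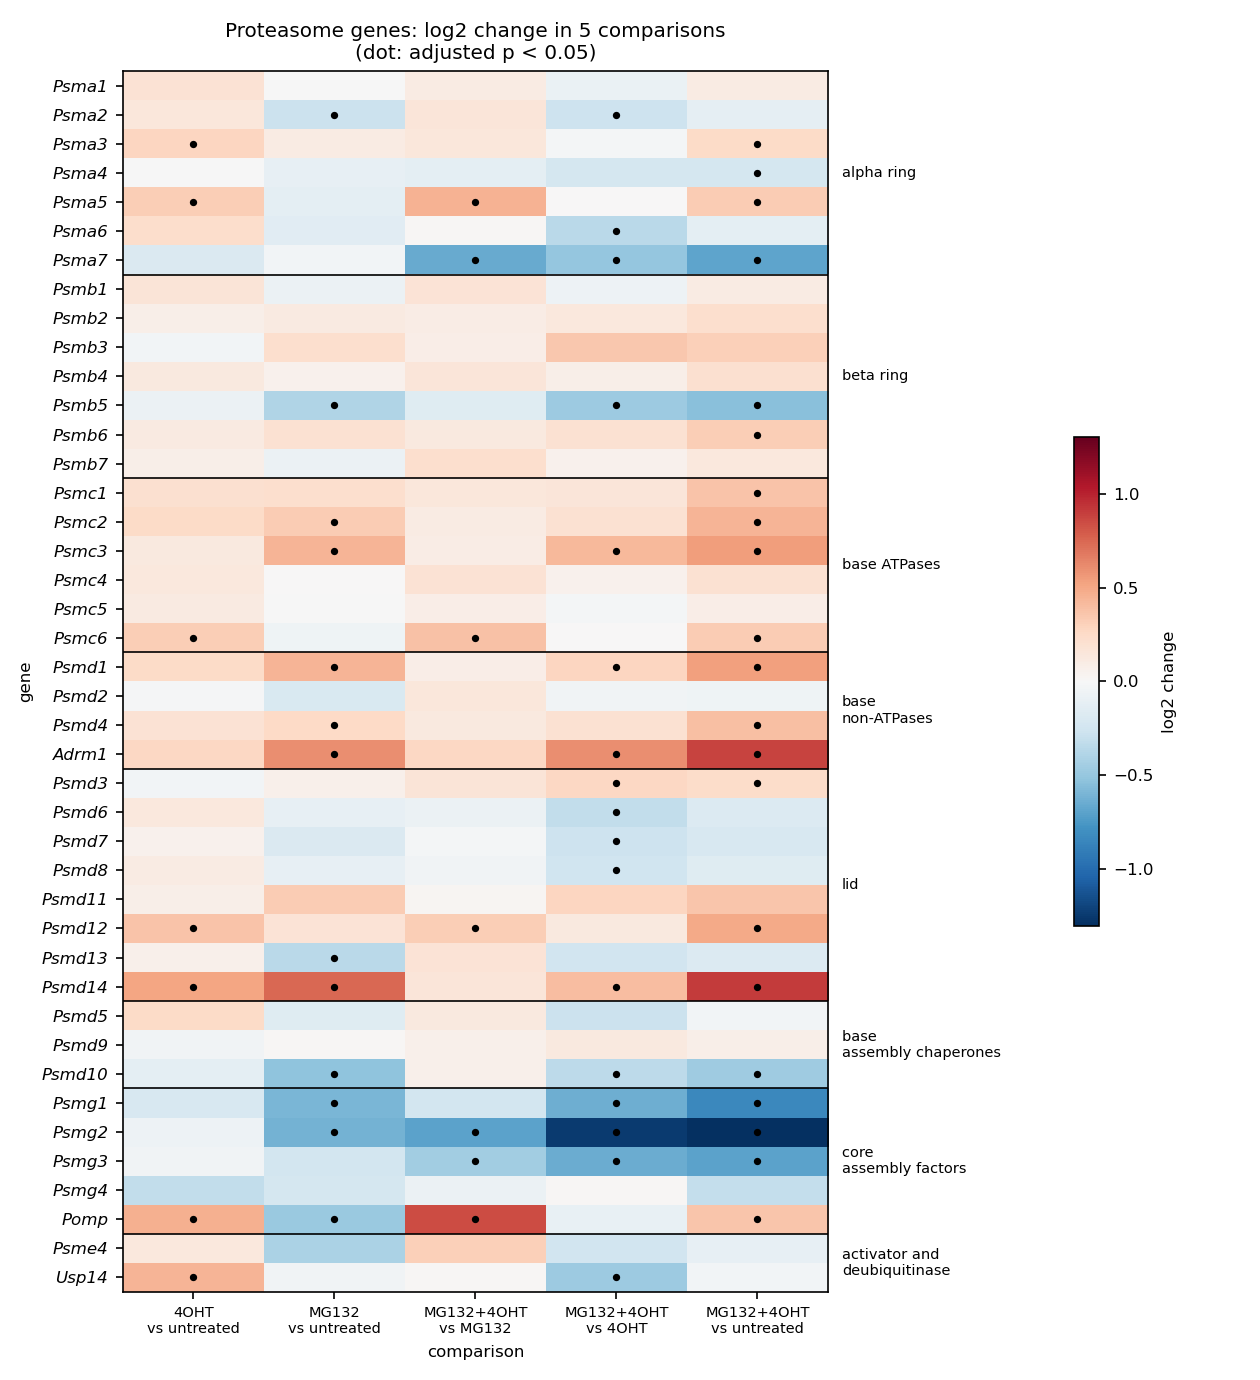
Log2 change (colour, first-named group minus second) of the 42 genes (rows, by role) in 5 comparisons (columns); a dot marks an adjusted p under 0.05. In the MG132 column 5 of the 10 base rows are red with a dot (Psmc2, Psmc3, Psmd1, Psmd4 and Adrm1) and the others are pale or blue. With median centring these 5 are not called, and Psmc2 and Psmd4 change sign. The core assembly rows Psmg1 to Psmg3 are blue in the MG132 column, and Psmg2 is deepest at -1.305 for both compounds against untreated cells.

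Whether 4OHT acted differently under inhibition was tested by subtracting its response without MG132 from that with MG132. This difference was called in 1 member, Psmg2, which was lower (-0.64 ± 0.15, adjusted p = 0.03). Its 4OHT response was -0.70 with MG132 and -0.06 without it. Over the members 0 were higher and 1 lower (1 and 5 at an unadjusted p under 0.05), against 2.94% and 3.61% of all genes (6.55% in either direction), and the median difference was -0.03 for members and 0.05 for all genes. Usp14 had a 4OHT response of 0.02 with MG132 and 0.44 without it, a difference of -0.42 ± 0.12 that missed the threshold (adjusted p = 0.076). For Psma7 the responses were -0.65 and -0.19 (difference -0.46 ± 0.19, adjusted p = 0.19), for Pomp 0.84 and 0.46 (0.39 ± 0.17, adjusted p = 0.22), and for Psmd14 0.16 and 0.51 (-0.35 ± 0.14, adjusted p = 0.18). The median SE of a member's difference was 0.14, so differences of this size had wide intervals. The Psmg2 call rested on single arrays: its value stayed between -0.66 and -0.58 but the adjusted p was 0.06 to 0.082 without untreated replicate 1 or 2, MG132 replicate 1 or 2, or any one array with both compounds, and 0.12 with slide as a block.

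Genes outside the 42 that belong to the same system were read in lists. The immunoproteasome subunits, alternatives to the catalytic beta subunits in immune and cytokine-treated cells, split. Psmb9 rose with MG132 by 1.38 ± 0.15 (adjusted p = 6e-05) and fell with 4OHT by 1.01 ± 0.15 (adjusted p = 0.00069), whereas Psmb10 fell with MG132 by 1.09 ± 0.18 (adjusted p = 0.00078) and changed by -1.93 ± 0.18 (adjusted p = 1.3e-05) with both compounds against untreated cells. Psma8, a testis alpha subunit, was called in no single-compound comparison and fell with both compounds against untreated cells by 0.61 ± 0.11 (adjusted p = 0.00095). These 3 of 5 listed genes passed the filter on low signal, all 3 above background on every array. Psmb9 was nevertheless dim, with means of -3.49 with 4OHT and -2.48 in untreated cells.

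Of 12 listed names of other genes whose products bind the proteasome (Ecm29 and Ecpas being one gene), 9 were tested, with 2 up and 3 down with MG132, 1 up and 1 down with 4OHT, and 4 up and 2 down with both compounds, each against untreated cells. Over all genes the shares were 24.1% up and 19% down with MG132, 13.9% and 14.7% with 4OHT, and 33.2% and 22.5% with both compounds. Psmf1, an inhibitor of the core particle, rose with MG132 by 1.31 ± 0.13 (adjusted p = 3.6e-05), and Psme1, a subunit of the interferon-inducible activator, fell by 0.86 ± 0.09 (adjusted p = 4.8e-05). Txnl1, a thioredoxin-like protein of the regulatory particle, rose with MG132 by 0.54 ± 0.09 (adjusted p = 0.00098; the call was lost with median centring). Akirin2, which carries proteasomes into the nucleus, rose with both compounds against MG132 alone by 0.54 ± 0.08 (adjusted p = 0.0013). Ube3c, a ubiquitin ligase of the proteasome, rose with 4OHT by 0.50 ± 0.08 (adjusted p = 0.0012) and fell with MG132 by 0.28 ± 0.08 (adjusted p = 0.017), a call lost in 9 of 28 alternatives. The Akirin2 call was lost with slide and replicate block together. The slide of the arrays with both compounds held MG132 replicate 3 alone of its group, so a fit within that slide cannot decide the call.

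Among 10 ubiquitin genes and shuttle receptors, 4 rose and 3 fell with MG132, 3 rose and 1 fell with 4OHT, and 6 rose and 3 fell with both compounds, each against untreated cells, beside the all-gene shares of 24.1% and 19%, 13.9% and 14.7%, and 33.2% and 22.5%. Ubb, a polyubiquitin gene, rose with MG132 by 0.39 ± 0.09 (adjusted p = 0.0055). Among receptors that carry ubiquitinated proteins to the proteasome, Ubqln2 changed by -0.66 ± 0.15 (adjusted p = 0.0049) and Ubqln4 by -0.63 ± 0.09 (adjusted p = 0.00031) with MG132. Ddi2, the protease that activates the Nfe2l1 protein, rose with 4OHT by 0.60 ± 0.10 (adjusted p = 0.0012) and with MG132 by 0.38 ± 0.10 (adjusted p = 0.011). With MG132, the calls of Ubb and Ddi2 were lost with median centring and within the slide that held the untreated arrays, and that of Ubqln4 with the mean over probes.

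The last list held 16 factors that control proteasome genes and the enzymes that process them. Of these, 7 rose and 1 fell with MG132, 6 rose and 2 fell with 4OHT, and 12 rose and 1 fell with both compounds, each against untreated cells, beside all-gene shares of 24.1% and 19%, 13.9% and 14.7%, and 33.2% and 22.5%. With MG132, Zfand2a, a stress-induced partner of the proteasome, rose by 1.94 ± 0.10 (adjusted p = 7.8e-07), Mafk by 0.99 ± 0.12 (adjusted p = 0.00013) and Mafg by 0.92 ± 0.13 (adjusted p = 0.00032), the last pair being small Maf partners of Nfe2l1. Nfyb, a subunit of the factor that binds CCAAT boxes, rose by 0.76 ± 0.10 (adjusted p = 0.00022). Nfe2l1 was chosen for a plot of single arrays after its values were seen: it read 4.01, 3.96 and 3.72 with both compounds, 3.86, 3.87 and 3.63 with MG132, 3.25, 3.19 and 3.27 with 4OHT and 3.30, 3.38 and 3.42 in untreated cells. Its MG132 groups lay above the others, and its rise with MG132 was 0.42 ± 0.10 (adjusted p = 0.0076; the call was lost with median centring and with the mean over probes). Its relative Nfe2l2 fell with MG132 by 0.42 ± 0.11 (adjusted p = 0.0093), a call lost in 3 of 28 alternatives.

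With 4OHT, another small Maf gene, Maff, led the list, with a rise of 1.996 ± 0.17 (adjusted p = 2.1e-05) without MG132 and 3.27 ± 0.17 (adjusted p = 5.4e-06) with it. Maff read 2.37, 2.35 and 2.25 with both compounds, -0.92, -0.80 and -1.10 with MG132, 1.22, 1.44 and 0.71 with 4OHT and -0.87, -1.03 and -0.72 in untreated cells, so only the 4OHT groups were raised. Mafk rose with 4OHT by 1.01 ± 0.12 (adjusted p = 0.00019), and Ngly1, which removes sugars from the Nfe2l1 protein, fell by 1.03 ± 0.14 (adjusted p = 0.00037). The Ngly1 signal was low, with means of -3.33 with 4OHT and -2.30 in untreated cells, though well above background on all 12 arrays. With both compounds against untreated cells, Bach1, a repressor at antioxidant elements, rose by 1.305 ± 0.15 (adjusted p = 5.2e-05).

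**Figure D4:**
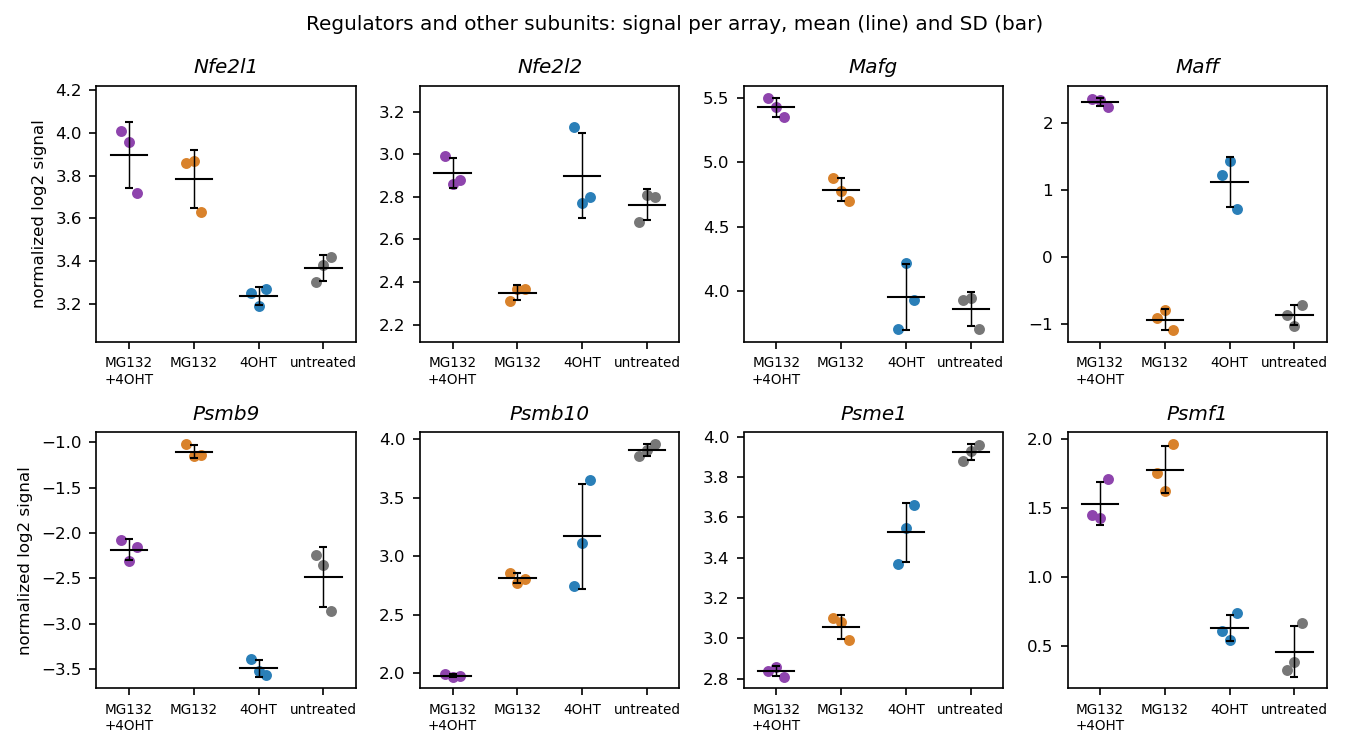
Normalized log2 signal (vertical axes, differing between panels) on each of 3 arrays per group for 4 transcription factor genes (upper row) and 4 genes of other proteasome subunits and regulators (lower row); dots are arrays, lines means and bars SD. Nfe2l1, Mafg and Psmf1 are high in both MG132 groups, Maff in both 4OHT groups, and Psmb10 and Psme1 are lowest with both compounds and highest in untreated cells.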

How the data were processed

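RNA from mouse embryonic stem cells was labelled with Cy3, hybridised to Agilent mouse arrays and grouped by the treatment in the sample titles (4 groups of 3). The authors deposited intensity values per spot (Agilent Feature Extraction 11.0.1.1), background-subtracted and detrended within each array but not scaled between arrays, per the file headers. The series-wide values the authors deposited were the same intensity values (largest difference 0). Of 62976 spots, 3671 control spots were left out, and no spot was saturated. The 75th percentile of the deposited intensity was 309 to 485. Precision is limited by the number of arrays.

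From these, log2 of the deposited intensity minus the array's 75th percentile was computed. A probe was kept if some group had it well above background on each of its arrays (34328 of 56605 probes). Probe accessions were matched to RefSeq names of GRCm38.p6 (32994 probes with a symbol), and the brightest probe by mean stood for each gene (26837 genes, 15984 with a symbol). All 12 arrays entered 1 limma fit (version 3.58.1 in R 4.3.3) with a mean per group, 8 residual degrees of freedom and 2.08 prior ones. The 6 contrasts were adjusted by Benjamini-Hochberg over all genes, with a threshold of 0.05, and the code was tested on simulated data. No exact test was run, since 3 against 3 arrays allow no p under 0.1. Files were read with jsonlite 2.0.0 and data.table, version 1.17.8, and plots drawn in Python 3.11.15 with matplotlib 3.10.9, numpy 2.4.6 and pandas 2.3.3.

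The members, gene lists and markers were chosen with earlier results of these data known. By the rule for names, members were named where among the 4 largest rises or falls of a comparison or the largest of their role, shown per array for the 3 largest rises and falls and 7 fixed genes, and list genes up to 4 per comparison. Of the lists outside the members, Psmb8 and Psmb11 did not pass the filter, Psme2 and Paaf1 were not matched under those names, and Ecm29 was tested under its current symbol, Ecpas. Results of a few list genes are not reported here.

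The alternatives were normexp (offset 50, on median signals) with quantile normalization, quantile normalization, median centring, other filters, the mean over probes, a robust variance with an intensity trend, a fit of only the arrays compared, slide as a block, single slides, a replicate block, the series-wide table and leaving out each array. Chosen after seeing the data were the percentile over probes, arrays centred on the members and leaving out all replicate 3 arrays.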

Additional observations from a re-analysis of the deposited data

Results flagged for a closer look

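The change in the 4OHT response that came with MG132 (the response with MG132 minus that without it) passed the test in 1 proteasome gene and 3 genes of the related lists, by limma's contrast with Benjamini-Hochberg adjustment. That was 1 of 42 members, 1 of 9 other genes binding the proteasome, 1 of 10 ubiquitin genes and receptors and 1 of 16 controlling factors. Of the 3 inducible or tissue-specific core subunits tested, 0 passed. Over all genes the share was 6.55%, so the flagged calls are not more frequent than this background over the members. Psmg2 had a difference of -0.64 ± 0.15 (log2, SE, adjusted p = 0.03), with 4OHT responses of -0.70 in the presence of MG132 and -0.06 in its absence. The Psmg2 call was lost in 11 of 26 alternatives. Ube3c had a difference of -0.54 ± 0.11 (adjusted p = 0.021), with 4OHT responses of -0.04 in the presence of MG132 and 0.50 in its absence, and its call was lost in 11 of 26 alternatives. Ddi2 had a difference of -0.61 ± 0.14 (adjusted p = 0.028), with responses of -0.01 in the presence of MG132 and 0.60 in its absence, and its call was lost in 13 of 26 alternatives. Maff had a difference of 1.27 ± 0.24 (adjusted p = 0.013), with responses of 3.27 in the presence of MG132 and 1.996 in its absence, and lost its call in 1 alternative, slide and replicate block together.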

How the results depend on the processing

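Of 66 calls over the members, 14 were kept under every alternative run: Psmd14, Psmd10, Psmg1, Psmg2 and Pomp for MG132 against untreated cells, Pomp for both compounds against MG132, Psmg2, Psmg3 and Usp14 for both against 4OHT, and Psmd14, Adrm1, Psmg1, Psmg2 and Psmg3 for both against untreated cells. The fewest calls, 26 of 66, were kept with slide and replicate block together, then 32 with slide as a block, 34 with median centring and 45 without the filter. Leaving out 1 array kept 47 (without untreated replicate 2 or MG132+4OHT replicate 1) to 65, quantile normalization 51 and normexp 56, against 66 with the filter on all 12 arrays, the robust trend and the series-wide table. Causes were not tested.

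Median centring left 0 rises with 4OHT, 1 rise and 22 falls with MG132, 1 rise for both compounds against MG132, 1 for both against 4OHT, 2 rises and 17 falls for both against untreated cells, and 0 falls in the difference of responses. It turned the sign of 10 values, none of them called in the new direction: Psmc2 (-0.017) and Psmd4 (-0.094) with MG132 and, with both compounds against untreated cells, Psma3 (-0.17), Psma5 (-0.10), Psmb6 (-0.10), Psmc1 (-0.055), Psmc6 (-0.10), Psmd3 (-0.18), Psmd4 (-0.036) and Pomp (-0.062). The members' median minus that of all genes was -0.12 with MG132 in the main scaling and 0.13 with normexp, 0.03 and -0.10 for both against MG132, and -0.09 and 0.08 for both against untreated cells. Normexp gave 1 fall with 4OHT, 14 rises and 4 falls with MG132, 1 rise and 9 falls for both against MG132 and 8 falls in the difference. Over all 26837 genes, normexp gave 1474 falls in the difference. Quantile normalization gave 12 rises and 4 falls with MG132, 1 rise and 7 falls for both against MG132 and 2 falls in the difference. Arrays centred on the members gave 4 rises with 4OHT, 4 falls with MG132 and 13 rises and 6 falls for both against 4OHT, and the percentile over probes 9 rises for both against untreated cells.

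Slide as a block gave 1 rise for both against MG132, 0 rises and 4 falls for both against 4OHT, 3 rises for both against untreated cells and 0 falls in the difference. MG132 was the only group with arrays on both slides, so the slide term rests on its replicate 3. Single slides gave 4 rises with 4OHT and 1 rise for both against MG132; fits within a slide were not possible where the groups lay on different slides. Without the filter, 3 rises and 7 falls remained in number for both against 4OHT, 9 rises for both against untreated cells and 0 falls in the difference. With only the arrays compared there were 2 rises with 4OHT and 3 rises and 7 falls for both against 4OHT; this was not run for the difference, which needs all groups. The robust trend gave 2 falls in the difference, and leaving out all replicate 3 arrays gave 7 falls for both against 4OHT.

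Replicate numbers were not taken as pairs in the main fit. Deviations from group means correlated over 0.1 in 11 of 18 same-numbered pairs of arrays. Among differently numbered pairs this held for 8 of 36 (range -0.29 to 0.19). For same-numbered pairs the range was -0.06 to 0.16 for replicate 1 and 0.07 to 0.15 for replicate 2. It was 0.12 to 0.41 for replicate 3, whose 6 pairs all lay over 0.1. The replicate 3 arrays thus shared deviations. Arrays of replicates 1 and 2 correlated as much across numbers, up to 0.19 for untreated replicate 2 with MG132 replicate 1. For these, sharing by number was not seen. A fit with a replicate block was also run. The replicate block kept 66 of 66 calls, with 8 rises and 0 falls with 4OHT, 7 and 7 with MG132, 5 and 3 for both against MG132, 6 and 15 for both against 4OHT, 15 and 7 for both against untreated cells and 0 and 1 in the difference. Slide and replicate block together gave 1 rise and 0 falls for both against MG132, 1 and 3 for both against 4OHT, 3 and 3 for both against untreated cells and 0 falls in the difference.

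Leaving out each array in turn gave 2 to 9 rises and 0 falls with 4OHT, 4 to 8 rises and 5 to 8 falls with MG132, 3 to 5 rises and 3 to 4 falls for both against MG132, 3 to 6 rises and 7 to 12 falls for both against 4OHT, 9 to 17 rises and 6 to 7 falls for both against untreated cells, and 0 rises and 0 to 1 falls in the difference. With 3 arrays per group the median SE of a member's change was 0.10, and small changes could be missed. The smallest called change was -0.23, for Psma4 with both compounds against untreated cells (limma, adjusted p = 0.047).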
